A study of Mus musculus with 6 samples.

Results

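Described here are 10 genes of chemokine ligands (Ccl2, Ccl3, Ccl4, Ccl5, Ccl6, Ccl12, Cxcl9, Cxcl10, Cxcl16 and Cx3cl1) of the 50383 genes measured in the lateral amygdala, where sensory input meets fear learning. They were chosen by name, knowing their levels in these libraries, to separate ligands that were higher with scrambled siRNA from those that were higher only with Baf53b siRNA. Their levels are therefore given as a description, without a test. Chemokines are small secreted proteins that steer migrating leukocytes by binding G protein-coupled receptors, and they are classed as CC, CXC or CX3C by the spacing of their first cysteines. In brain, Cx3cl1 is made by neurons and its receptor Cx3cr1 marks microglia, while most other family members are low at rest and are induced in glia, vessels and leukocytes by NF-κB and interferon signalling.

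RNA came from male mice of a 129xC57BL/6 hybrid strain aged 2 to 3 months. There were 3 groups with 2 libraries each: control, whose handling the labels do not give, scrambled siRNA (a control RNA duplex with shuffled bases) and Baf53b siRNA, which was injected 1 day after the animals were trained; when the scrambled siRNA was given is not stated. BAF53b, a neuronal subunit of a nucleosome remodelling complex, is encoded by Actl6b. The labels mention tissue of 4 mice but not whether a library pools them, so p-values measure only the spread between these libraries, which may be technical.

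Levels were deposited as FPKM, fragments scaled to transcript length and to library size, each with an interval that covers error within that library only. The fragments behind the genes were estimated from the width of that interval, and came to between 6.42 and 10.7 (in units of 1e6) per library. Where a ligand was listed at 0 its interval was 0 to 0 and held no error. The libraries labelled Baf53b siRNA held Actl6b at 42.8 and 39.6 FPKM, beside 43.8 and 43.9 FPKM with scrambled siRNA and 42.9 and 44.1 FPKM in the 2 control libraries (log2 difference -0.09, SE 0.12, between the siRNA groups, limma adjusted p = 1). A knockdown was thus not detectable, and Baf53b siRNA below names the label. Markers of excitatory neurons of the basolateral complex were present in all libraries (Slc17a7 between 288 and 410 FPKM), as were markers of neighbouring regions such as the central amygdala and striatum (summed level 165 to 194 FPKM over 13 genes).

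The 10 genes lie at 5 places in the genome (mm10). Ccl2 and Ccl12 sit 64.4 kb apart on chromosome 11, and Ccl5, Ccl6, Ccl3 and Ccl4 form a second cluster on that chromosome between 83525778 and 83664683. Cxcl16 lies on chromosome 11 as well (70453983 to 70459984), Cxcl9 and Cxcl10 are 18.6 kb apart on chromosome 5, and Cx3cl1 is on chromosome 8 (94772009 to 94782427). RefSeq promoter sequences (GRCm38.p6, the same build as mm10) matched 6 of the 10: Ccl12, Ccl6, Ccl3, Cxcl9, Cxcl10 and Cx3cl1. The 250 bases before the RefSeq start of transcription are printed for 4 genes, 5′ to 3′ on the gene's strand, since their levels behaved in the 3 ways described further on: Cxcl10 and Cxcl9 were high only with Baf53b siRNA, Ccl12 was high with both siRNAs and Cx3cl1 was high in every library. Capitals mark matches, on either strand, to 4 motifs: the core of the interferon-stimulated response element (GAAA, any 2 bases, GAAA), the gamma-activated sequence (TTCNNNGAA), the NF-κB consensus and the TATA box (TATAAA).
Cxcl10, chr5:92348890-92349139, minus strand: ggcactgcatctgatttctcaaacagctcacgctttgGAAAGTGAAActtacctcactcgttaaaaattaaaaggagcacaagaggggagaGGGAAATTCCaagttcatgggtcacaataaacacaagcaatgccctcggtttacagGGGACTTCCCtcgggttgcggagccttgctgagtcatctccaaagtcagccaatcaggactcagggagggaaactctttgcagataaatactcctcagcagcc
Cxcl9, chr5:92328080-92328329, minus strand: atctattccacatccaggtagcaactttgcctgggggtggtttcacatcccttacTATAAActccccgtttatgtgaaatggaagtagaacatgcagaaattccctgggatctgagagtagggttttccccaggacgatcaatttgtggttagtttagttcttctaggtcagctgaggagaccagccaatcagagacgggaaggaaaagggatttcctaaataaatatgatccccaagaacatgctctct
Ccl12, chr11:82101595-82101844, plus strand: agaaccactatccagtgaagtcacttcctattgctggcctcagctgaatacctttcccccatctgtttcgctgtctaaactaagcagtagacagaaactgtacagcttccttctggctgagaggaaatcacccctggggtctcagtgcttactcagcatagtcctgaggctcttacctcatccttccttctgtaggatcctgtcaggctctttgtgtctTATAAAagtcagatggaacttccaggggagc
Cx3cl1, chr8:94771930-94772179, plus strand: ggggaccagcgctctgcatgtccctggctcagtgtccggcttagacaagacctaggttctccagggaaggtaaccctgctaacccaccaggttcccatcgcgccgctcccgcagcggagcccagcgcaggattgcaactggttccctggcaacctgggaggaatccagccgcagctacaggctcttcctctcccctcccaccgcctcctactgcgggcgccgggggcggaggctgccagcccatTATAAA

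The Cxcl10 window held the interferon element core at bases -213 to -204 from the start and the NF-κB consensus at -159 to -150 and -103 to -94. Of 32851 windows of that length, 2.98% held the interferon element core and 3.90% the NF-κB consensus. The TATA box letters lay at -31 to -26 in Ccl12, at -195 to -190 in Cxcl9 and at -6 to -1 in Cx3cl1, and in 12.4% of all windows. The gamma-activated letters, in 7.02% of windows, matched none of the 6, and the Ccl6 and Ccl3 windows held none of the 4 motifs. For Cx3cl1 the RefSeq start (94772180) lies inside the gene as deposited, so 171 of its 250 bases, the TATA box letters among them, are within that gene. The matches are letters only and no binding was measured.

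In control the members were low, apart from Cx3cl1. Summed over the other 9 ligands, the level was 2.27 and 2.18 FPKM in the 2 control libraries, 7.22 and 9.99 FPKM with scrambled siRNA, and 66.5 and 27.9 FPKM with Baf53b siRNA. The leading gene of the 9 changed with the group. Ccl6 made up 47.7% and 74.0% of the sum in control, Ccl12 made up 50.6% and 62.2% in scrambled siRNA, and Ccl5 made up 57.4% and 39.3% in Baf53b siRNA. Among all 39 ligands of the family found here, Ccl5 ranked 13 in control replicate 1. In control replicate 2 it was listed at 0, tied with other ligands at 0, and has no rank of its own. It ranked 13 and 16 in scrambled siRNA and 4 in both Baf53b siRNA libraries, while Cx3cl1 ranked first in all 6. The control libraries listed 5 of the 9 at 0, the scrambled siRNA libraries 1 each and the Baf53b siRNA libraries none.

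**Figure D1:**
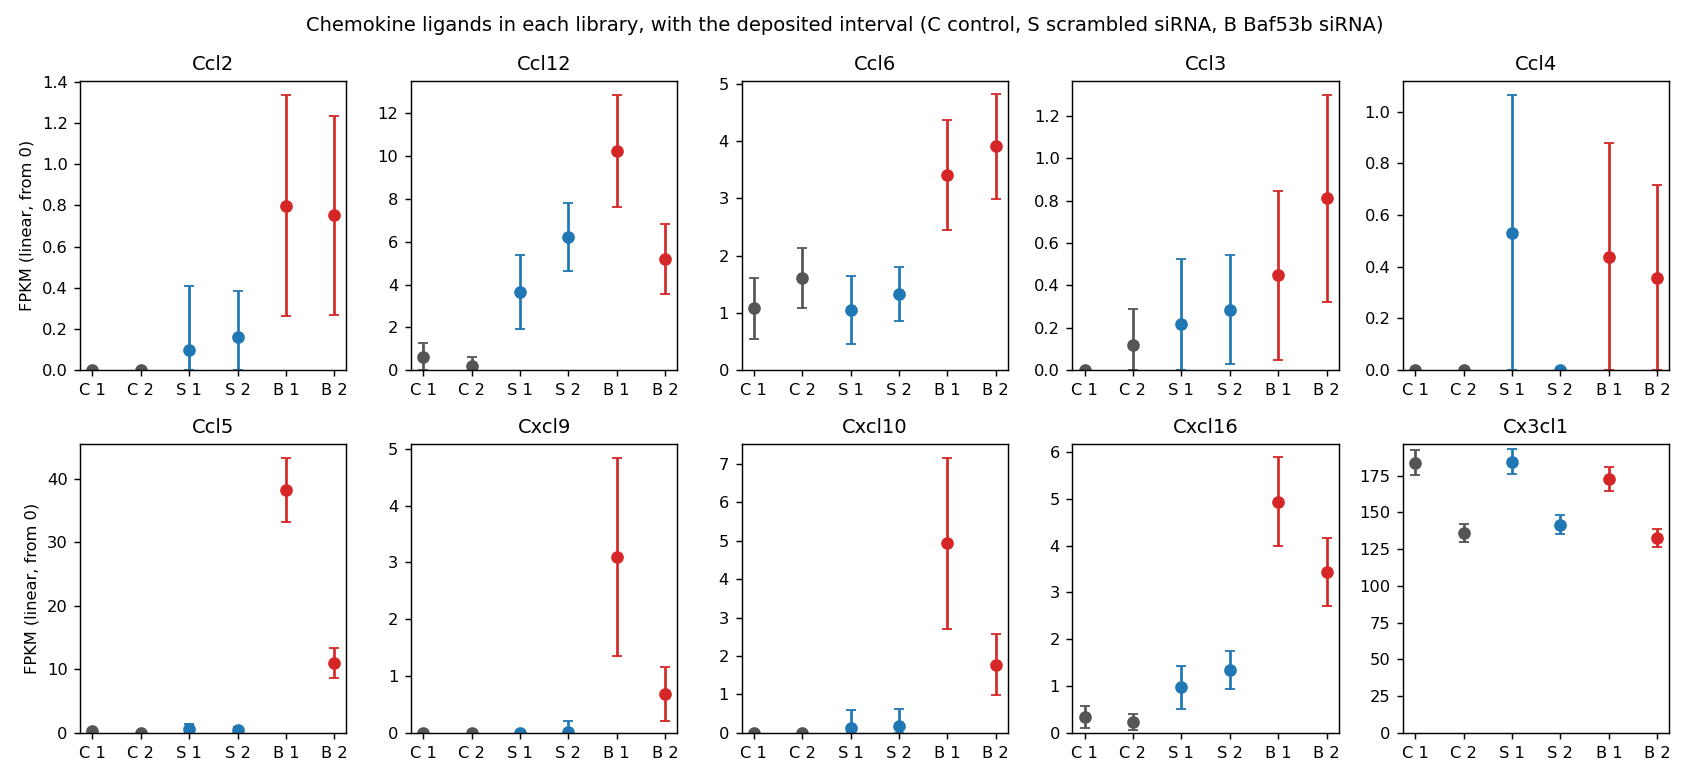
FPKM (vertical axis, linear, from 0) of each ligand in the 6 libraries (horizontal axis: control C, scrambled siRNA S, Baf53b siRNA B, replicates 1 and 2), with bars for the deposited interval of each library. Ccl5, Cxcl9 and Cxcl10 are near 0 outside Baf53b siRNA, Ccl12 is raised in both siRNA groups, and Cx3cl1 lies between 133 and 185 FPKM throughout.

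The CC ligands of the Ccr2 receptor, which draws monocytes out of the blood, came first. Ccl12 (ENSMUSG00000035352.3), a mouse monocyte attractant, measured 0.599 and 0.217 FPKM in the 2 control libraries, 3.65 and 6.21 FPKM with scrambled siRNA, and 10.2 and 5.19 FPKM with Baf53b siRNA. Both scrambled siRNA libraries lay above both control libraries, also by their intervals (lowest bound 1.92 FPKM against a highest bound of 1.26 FPKM), while the siRNA groups overlapped. Its log2 differences, on the log2(FPKM + 1) scale used throughout, were 2.05 (SE 0.34) for scrambled siRNA against control and 0.53 (SE 0.34) for Baf53b siRNA against scrambled siRNA. Ccl2 (ENSMUSG00000035385.5), the main monocyte attractant in many tissues, was listed at 0 in both control libraries, at 0.10 and 0.159 FPKM with scrambled siRNA, and at 0.799 and 0.752 FPKM with Baf53b siRNA. The siRNA groups did not overlap in level, but their intervals did, and Ccl2 rested on at most 2 estimated fragments per scrambled siRNA library and on 8.8 and 9.7 in Baf53b siRNA. A low level of Ccl2 in control could not be told from 0 at this depth.

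Ccl5 (ENSMUSG00000035042.2, chromosome 11, 83525778 to 83530518, minus strand), which attracts T cells and monocytes through receptors that include Ccr1 and Ccr3, measured 0.243 and 0 FPKM in the 2 control libraries, 0.549 and 0.467 FPKM with scrambled siRNA, and 38.2 and 10.95 FPKM with Baf53b siRNA. Baf53b siRNA replicate 2 alone was above all other groups, with an interval from 8.58 to 13.3 FPKM, and replicate 1 was 3.49 times as high as replicate 2. The log2 difference was 3.84 (SE 0.49) against scrambled siRNA, and 0.44 (SE 0.49) between scrambled siRNA and control, where the estimate rested on at most 3.8 fragments a library. Ccl6 (ENSMUSG00000018927.3), a ligand of Ccr1 made by myeloid cells, measured 1.08 and 1.61 FPKM in the 2 control libraries, 1.05 and 1.33 FPKM with scrambled siRNA, and 3.40 and 3.91 FPKM with Baf53b siRNA. Control and scrambled siRNA overlapped (log2 difference -0.09, and 0.07 without control replicate 2), and Baf53b siRNA was higher by a log2 difference of 1.09 (SE 0.19) and by its intervals.

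Ccl3 and Ccl4, macrophage inflammatory proteins, stayed below 1 FPKM in all 6 libraries. Ccl3 (ENSMUSG00000000982.5) measured 0 and 0.119 FPKM in the 2 control libraries, 0.217 and 0.286 FPKM with scrambled siRNA, and 0.447 and 0.811 FPKM with Baf53b siRNA, on 11 or fewer estimated fragments each. Its groups did not overlap in level, but the intervals overlapped between every pair of groups. Ccl4 (ENSMUSG00000018930.3) was listed at 0 in both control libraries and in scrambled siRNA replicate 2, and measured 0.532 FPKM in scrambled siRNA replicate 1 and 0.439 and 0.358 FPKM in Baf53b siRNA, on 4 fragments each. At this depth neither gene could be placed in either class.

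The CXC ligands of Cxcr3, which attract T and natural killer cells and are induced by interferon gamma, followed Ccl5. Cxcl9 (ENSMUSG00000029417.9) was listed at 0 in both control libraries and scrambled siRNA replicate 1, at 0.0127 FPKM in scrambled siRNA replicate 2 and at 3.10 and 0.688 FPKM in Baf53b siRNA. Cxcl10 (ENSMUSG00000034855.13) was listed at 0 in both control libraries, at 0.138 and 0.186 FPKM with scrambled siRNA, and at 4.94 and 1.78 FPKM with Baf53b siRNA, with a log2 difference of 1.81 (SE 0.34) between the siRNA groups. In scrambled siRNA both genes rested on less than 1 estimated fragment a library, so a small rise there was not detectable. The intervals of the Baf53b siRNA libraries lay above those of scrambled siRNA for both genes, for Cxcl9 narrowly (0.209 against 0.204 FPKM). Art3, a gene on the other strand that spans Cxcl10, measured 2.41 and 2.30 FPKM in the 2 control libraries, 1.74 and 1.81 FPKM with scrambled siRNA, and 4.04 and 3.02 FPKM with Baf53b siRNA, and whether strand was used in the estimates is not given in the sources used here.

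Cxcl16 and Cx3cl1 are made as membrane proteins that are shed by the metalloproteases Adam10 and Adam17. Cxcl16 (ENSMUSG00000018920.11), the ligand of Cxcr6, measured 0.344 and 0.231 FPKM in the 2 control libraries, 0.979 and 1.34 FPKM with scrambled siRNA, and 4.94 and 3.43 FPKM with Baf53b siRNA. The 3 groups did not overlap in level. The log2 difference was 0.74 (SE 0.20) for scrambled siRNA against control, where the intervals overlapped, and 1.25 (SE 0.20) between the siRNA groups, where they did not. Zmynd15, which overlaps the 5′ end of Cxcl16 on the other strand, measured 0.0472 and 0.110 FPKM in the 2 control libraries, 0.377 and 0.256 FPKM with scrambled siRNA, and 1.56 and 0.971 FPKM with Baf53b siRNA, and as for Art3 it is not stated whether reads of the pair were separated by strand. Adam10 lay between 22.1 and 24.6 FPKM in all libraries. Adam17 measured 3.81 and 3.53 FPKM in the 2 control libraries, 4.12 and 4.30 FPKM with scrambled siRNA, and 5.61 and 6.13 FPKM with Baf53b siRNA, and did not pass (limma adjusted p = 0.261 against control).

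Cx3cl1 (ENSMUSG00000031778.13), the neuronal ligand, was the most abundant and overlapped between all groups. It measured 184 and 136 FPKM in the 2 control libraries, 185 and 142 FPKM with scrambled siRNA, and 173 and 133 FPKM with Baf53b siRNA, on at least 1777 estimated fragments a library. The log2 differences were 0.03 and -0.09 (SE 0.23) for scrambled siRNA against control and Baf53b siRNA against scrambled siRNA. The library numbered 1 was the higher in each group, by 35.3%, 30.3% and 30.4%, and its interval lay above that of number 2. The interval of number 1 lay above that of number 2 for 24.6%, 21.9% and 17.2% of all genes tested in control, scrambled siRNA and Baf53b siRNA. Of 14664 genes tested, 37.1% were higher in number 1 in all 3 groups, and 2.52% by at least the smallest log2 difference of Cx3cl1 (0.38). The neuronal genes Eno2 (31.4% to 32.1% higher in number 1) and Slc17a7 (23.1% to 37.0%) shared this order, and Rbfox3 did by 17.4% to 23.03%. Snap25 and Syt1 differed by 13.1% or less between the numbers, so the order was not one of all neuronal genes. The mitochondrial share of summed FPKM was higher in number 2 in each group. In numbers 1 and 2 it was 19.4% and 29.5% in control, 15.0% and 26.9% with scrambled siRNA, and 19.3% and 22.8% with Baf53b siRNA. Its part in the order of Cx3cl1 was not tested. The labels do not say what a replicate number stands for.

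**Figure D2:**
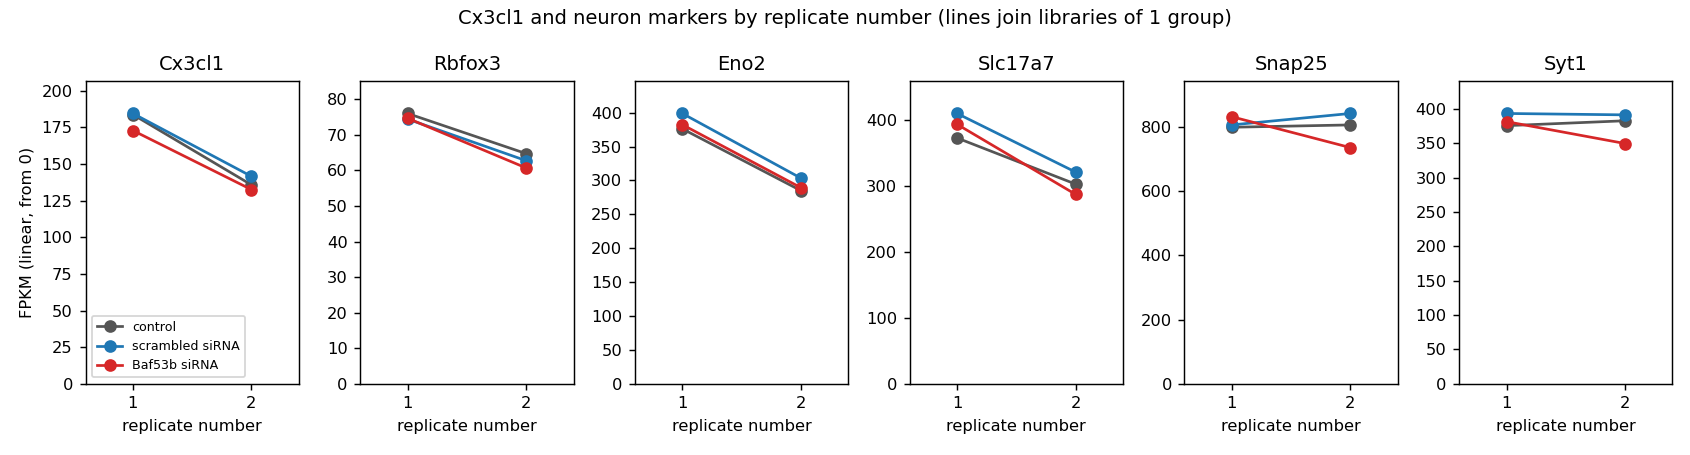
FPKM (vertical axis, linear, from 0) of Cx3cl1 and 5 neuron markers against the replicate number (horizontal axis), with a line joining the 2 libraries of each group. Cx3cl1, Rbfox3, Eno2 and Slc17a7 are lower in number 2 in all 3 groups, while Snap25 and Syt1 stay within 13.1%.

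Set side by side, the ligands differed in how much of the difference between Baf53b siRNA and control was present with scrambled siRNA. From group means in FPKM that share was 61.8% for Ccl12, 22.4% for Cxcl16, 16.8% for Ccl2, 4.83% for Cxcl10, 1.58% for Ccl5 and 0.335% for Cxcl9, and -6.79% for Ccl6, which was no higher with scrambled siRNA. It was 33.8% for Ccl3 and 66.8% for Ccl4, the latter on 4 fragments in 1 library. Over the 181 genes higher in Baf53b siRNA than in control (limma, adjusted p under 0.05), the median share was 30.1% and the quartiles 17.2% and 38.4%. Both differences in the share use the same control libraries. Ccl12 and Ccl4 lay above the upper quartile, Ccl2, Ccl5, Ccl6, Cxcl9 and Cxcl10 below the lower one (Ccl2 by less than 1 percentage point), and Cxcl16 and Ccl3 between them. The ligands were chosen on this contrast, and Ccl5, Ccl12, Cxcl10 and Cxcl16 are themselves among the 181 genes. These places are therefore a description and no test, and at this depth Ccl3 and Ccl4 stay without a class.

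**Figure D3:**
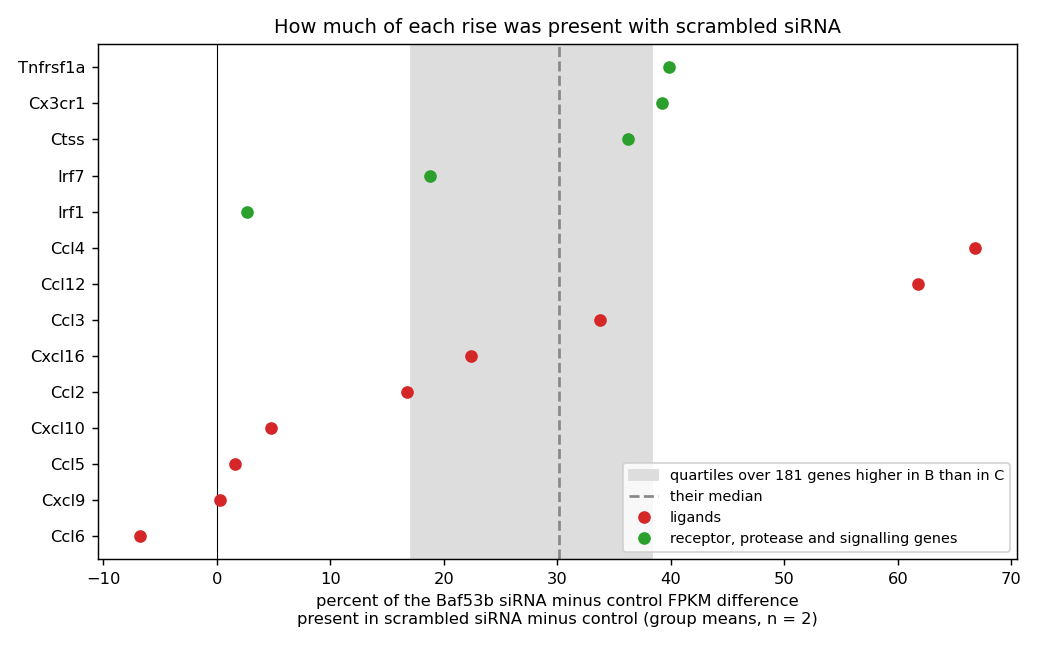
Percent of the difference in group mean FPKM between Baf53b siRNA and control that was present between scrambled siRNA and control (horizontal axis), for 9 ligands (red) and 5 called receptor, protease and signalling genes (green), with the median and quartiles over 181 called genes in grey. Ccl12 lies at 61.8% and Cxcl9, Ccl5 and Cxcl10 below 5%. The 181 genes include Ccl5, Ccl12, Cxcl10 and Cxcl16.

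A filter on low values (a mean of at least 1 FPKM over the 6 libraries) let 6 of the 10 members into the fit across 14664 genes. Ccl5, Cxcl10 and Cxcl16 passed it through Baf53b siRNA, where they are high, so the counts that follow are a record of the fit and support nothing. In limma 0 of the 6 were called against scrambled siRNA (0.123% of all genes tested were called higher and 0% lower), and 0 for scrambled siRNA against control (0% of all genes either way). In these 2 limma comparisons 4 and 2 of the 6 had an unadjusted p under 0.05, beside 444 and 325 of the 14664 genes. Against control 4 of 6 were called higher with Baf53b siRNA (Ccl5, Ccl12, Cxcl10 and Cxcl16), beside 1.23% of all genes higher and 0% lower. Both Baf53b siRNA libraries lay above both control libraries for 5 of the 6 (all but Cx3cl1) and 16.7% of genes, and by their intervals for the same 5 and 2.79%. Both control intervals of Cxcl10 and that of Ccl5 in control replicate 2 were 0 to 0, so for Cxcl10 any lower bound above 0 separates the groups. Both Baf53b siRNA libraries lay above both scrambled siRNA libraries for 4 of the 6, and for 13.1% of all genes, and by their intervals for the same 4 and 1.21%. The scrambled siRNA libraries lay above control for 4 of the 6 and 12.7% of genes, and by their intervals for Ccl12 and 0.668%.

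The 2 Baf53b siRNA libraries differed among the members. By intervals, replicate 1 was above replicate 2 for Ccl5, Ccl12, Cxcl9, Cxcl10 and Cx3cl1, all but Cxcl9 among the 6 in the fit, and for 17.2% of genes tested. The ratio of replicate 1 to replicate 2 was 4.51 for Cxcl9, 3.49 for Ccl5, 2.78 for Cxcl10, 1.97 for Ccl12 and 1.44 for Cxcl16. It was 1.06 for Ccl2, 0.870 for Ccl6 and 0.552 for Ccl3. Ccl8, a monocyte attractant that is no member, had a ratio of 0.322. By intervals the 2 libraries overlapped for Ccl2, Ccl3, Ccl4, Ccl6 and Cxcl16, so their order was not settled, and no member was higher in replicate 2. The order of Ccl8 is that of a single gene picked after its values were seen.

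The receptors were not used to choose the ligands, but their list was drawn up with earlier results of these data known, which limits what a test of it shows. Of 23 chemokine receptors 5 passed the filter, and 1 was called higher with Baf53b siRNA against control. Beside it stood 1.23% of all genes tested and 8 of 18 microglia markers. The receptor called was Cx3cr1 (ENSMUSG00000052336.7), the receptor of Cx3cl1 on microglia. It measured 19.0 and 19.5 FPKM in the 2 control libraries, 26.1 and 26.7 FPKM with scrambled siRNA, and 40.0 and 35.0 FPKM with Baf53b siRNA, and the 3 groups did not overlap. The log2 difference against control was 0.92 (SE 0.13, limma adjusted p = 0.0244), and against scrambled siRNA 0.49 (SE 0.13, limma adjusted p = 0.654). Its ligand Cx3cl1 had differences of -0.06 and -0.09 in these comparisons. The decoy receptor Ackr1 lay between 17.3 and 27.7 FPKM with overlapping groups, and Ackr2 at 0.356 FPKM or less.

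The receptors Ccr1, Ccr2, Ccr3, Cxcr3 and Cxcr6 fell under the filter and were not tested. Ccr2, the receptor of Ccl2 and Ccl12, measured 0.0617 and 0.0984 FPKM in the 2 control libraries, 0.208 and 0.447 FPKM with scrambled siRNA, and 1.54 and 1.63 FPKM with Baf53b siRNA. Cxcr6, the receptor of Cxcl16, measured 0.0242 and 0 FPKM, 0.330 and 0.299 FPKM, and 2.38 and 0.945 FPKM in the same order. Cxcr3, the receptor of Cxcl9 and Cxcl10, was listed at 0 in both control libraries, at 0.0812 and 0.0221 FPKM with scrambled siRNA, and at 0.467 and 0.396 FPKM with Baf53b siRNA. In each of these 3 receptors both Baf53b siRNA libraries were the highest. Ccr1 reached 0.332 FPKM on 20 estimated fragments, and Ccr3 was listed at 0 except in Baf53b siRNA replicate 2. No level of these receptors with scrambled siRNA exceeded 0.447 FPKM.

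**Figure D4:**
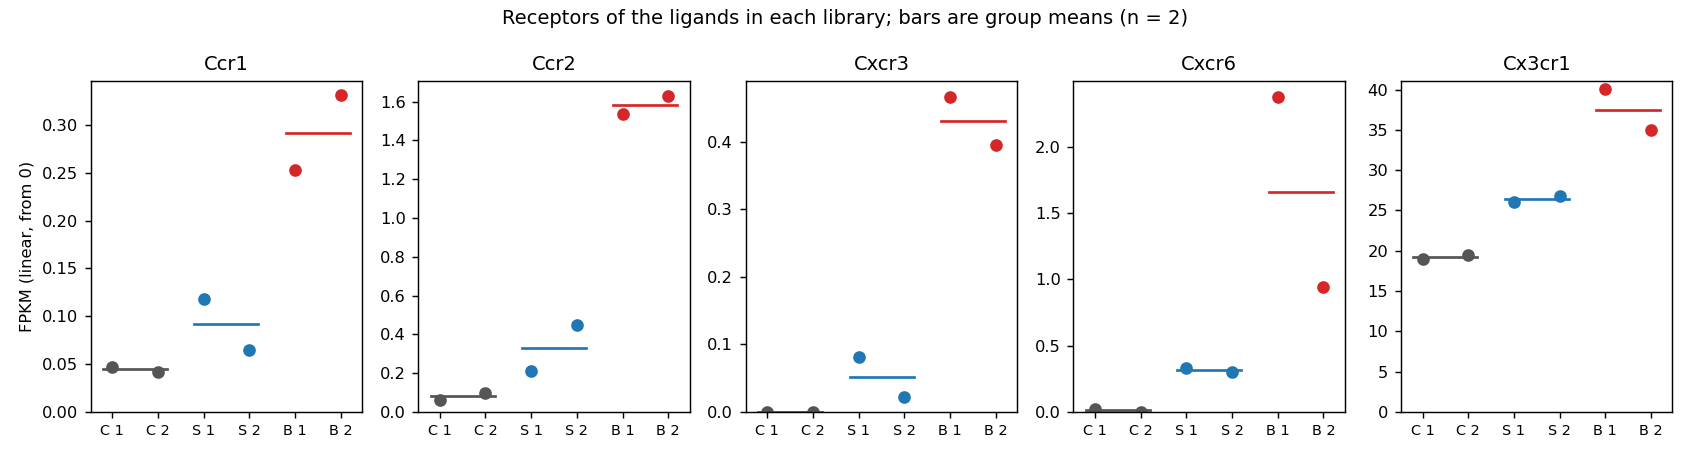
FPKM (vertical axis, linear, from 0) of 5 receptors of the ligands in the 6 libraries (horizontal axis), with horizontal bars for group means of 2 libraries. Cx3cr1 is present in control, while Ccr1, Ccr2, Cxcr3 and Cxcr6 are at 0.0984 FPKM or less there and highest in Baf53b siRNA.

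Of 30 other chemokine ligands 29 were found, 8 were tested and none passed in limma in any of the 3 comparisons. An unadjusted limma p under 0.05 was found for 3 of 8 between Baf53b siRNA and each of the other groups, and for 1 of 8 between scrambled siRNA and control. Of all 14664 genes it was found for 444 against scrambled siRNA, 736 against control and 325 for scrambled siRNA against control. The most abundant by their mean were Ccl27a (between 55.5 and 65.8 FPKM), Cxcl14 (between 20.9 and 25.5 FPKM) and Cxcl13. Cxcl13, the attractant of B cells through Cxcr5, was listed at 0 in both control libraries, and measured 1.43 and 6.48 FPKM with scrambled siRNA, and 54.5 and 8.04 FPKM with Baf53b siRNA. Its spread was wide, the siRNA groups differing by 2.39 on the log2 scale (SE 0.84, limma adjusted p = 1) and Baf53b siRNA and control by 4.49 (SE 0.84, limma adjusted p = 0.0755). The median log2 difference of the 8 ligands against control was 0.34, beside 0.04 over all genes tested. Ccl8 is among the 8. It was listed at 0 in both control libraries and at 0.198 FPKM or less with scrambled siRNA. It thus passed the filter only through Baf53b siRNA, where it is high. The median and the counts of unadjusted p for the 8 ligands are therefore a record of the fit and support nothing.

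Of the 46 tested genes of the chemokine system beyond the members, 6 were called higher with Baf53b siRNA against control and none lower, beside 1.23% and 0% of all genes tested. The lists were chosen with earlier results of these data known, so their counts are a description and not independent evidence. No such gene was called for scrambled siRNA against control or between the siRNA groups (5 and 12 of the 46 had an unadjusted p under 0.05 in limma, beside 325 and 444 of all 14664 genes). Of 13 interferon signalling genes 3 were called higher against control, Irf1 and Irf7 among them, with a median log2 difference of 0.43. Irf1, a factor induced by interferon gamma, measured 3.60 and 3.46 FPKM in the 2 control libraries, 3.54 and 3.77 FPKM with scrambled siRNA, and 8.80 and 7.69 FPKM with Baf53b siRNA (log2 difference 1.03, SE 0.15, limma adjusted p = 0.0248 against control). Irf7 had group means of 0.307 FPKM in control, 0.811 FPKM with scrambled siRNA and 2.99 FPKM with Baf53b siRNA, so it passed the filter only through the group where it is high, and its call (log2 difference 1.60, SE 0.25, limma adjusted p = 0.0340) supports nothing. Of the rise of Irf1 2.70% was present with scrambled siRNA, against 18.8% for Irf7. Interferon gamma itself (Ifng) was listed at 0 in 5 libraries and at 0.0424 FPKM in Baf53b siRNA replicate 2, and Ifnb1 was listed at 0 in all 6.

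Of 12 tested NF-κB and cytokine genes 1 was called higher against control, beside 1.23% of all genes tested. It was the tumour necrosis factor receptor Tnfrsf1a (log2 difference 1.07, SE 0.17, limma adjusted p = 0.0374), and the median of the 12 was 0.29. Tnf stayed at 0.162 FPKM or less and Il1b at 1.09 FPKM or less. Of 8 tested processing genes 1 was called higher, beside the same 1.23%, and their median was 0.26. It was Ctss, a microglial lysosomal protease (2.01, SE 0.15, limma adjusted p = 0.00306). The 6 calls moved with single libraries: 1 gene was called without control replicate 1 and 1 without control replicate 2, 3 without scrambled siRNA replicate 1 and 3 without replicate 2, 2 without Baf53b siRNA replicate 1 and 3 without replicate 2. Ctss was called in each of these fits. The call of Cx3cr1 was lost whenever any 1 library was left out, as were those of Irf1 and Tnfrsf1a (the highest adjusted p over all settings were 0.261, 0.293 and 0.329), and that of Irf7 without either control library or Baf53b siRNA replicate 2. Without Baf53b siRNA replicate 1 Irf7 fell under the filter. Ccl8 was called without Baf53b siRNA replicate 1, also against scrambled siRNA, and Cxcl13 against control without replicate 2. Each of these fits kept 1 Baf53b siRNA library, the higher of the 2 for that gene. Ccl8 passed the filter there only through that library. The calls of Ccl8 and Cxcl13 therefore support nothing.

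Apart from neuron markers, the cell type sums given here were higher in both Baf53b siRNA libraries than in both control libraries. Their part in the ligand differences was not tested. Between the 2 Baf53b siRNA libraries the sums did not share 1 order. Microglia, T and natural killer, B and dendritic cell sums were higher in replicate 1, as was the sum of the ligands without Cx3cl1. Monocyte, neutrophil, border macrophage, astrocyte and endothelial sums were higher in replicate 2. In bulk tissue more cells of a type and more RNA per cell cannot be told apart. The summed level of 18 microglia markers was 343 to 355 FPKM in control, 567 to 588 FPKM in scrambled siRNA and 790 to 979 FPKM in Baf53b siRNA. In limma 8 of the 18 were called higher with Baf53b siRNA against control, beside 1.23% of all genes, and 10 did not pass. In each of the other 2 comparisons 0 of the 18 were called. For 16 T and natural killer cell markers the sums were 1.83 to 3.02 FPKM, 3.89 to 5.73 FPKM and 8.02 to 14.8 FPKM, with Cd3e listed at 0 in both control libraries and at 0.670 and 0.327 FPKM in Baf53b siRNA. For 8 B cell markers they were 4.37 to 4.63 FPKM, 7.49 to 10.2 FPKM and 14.9 to 59.2 FPKM. For 8 monocyte markers they were 9.76 to 10.3 FPKM, 13.8 to 15.8 FPKM and 20.2 to 26.7 FPKM, for 8 border macrophage markers 1.16 to 1.67 FPKM, 1.31 to 1.54 FPKM and 2.79 to 3.59 FPKM, and for 9 neutrophil markers 0.543 to 0.746 FPKM, 1.42 to 2.34 FPKM and 1.80 to 7.44 FPKM with Ly6g listed at 0 in all 6. The astrocyte filament gene Gfap measured 16.9 and 18.3 FPKM, 45.1 and 47.3 FPKM, and 170 and 178 FPKM. For 10 astrocyte markers, Gfap among them, the sums were 577 to 674 FPKM, 677 to 698 FPKM and 898 to 953 FPKM. In limma 4 of the 10 were called higher with Baf53b siRNA against control, beside 1.23% of all genes. Of the 10 only Gfap was called between the siRNA groups, beside 0.123% of all genes. For 10 endothelial markers the sums were 56.6 to 65.8 FPKM, 72.7 to 75.1 FPKM and 75.3 to 90.6 FPKM. For 8 dendritic cell markers they were 14.9 to 16.8 FPKM, 21.7 to 23.5 FPKM and 25.9 to 30.3 FPKM. The dendritic cell list shares Siglech with the microglia list, and 2 of its 8 genes passed the filter, so its sum is not separate from that of microglia. Summed neuron markers lay between 2590 and 3005 FPKM, lowest in Baf53b siRNA replicate 2. None of the 13 tested was called in any comparison. Between the siRNA groups 0 of the 13 had a positive log2 difference (median -0.07), beside 7470 of all 14664 genes. Against control it was 2 of the 13 (median -0.06), beside 8901 of all genes.

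**Figure D5:**
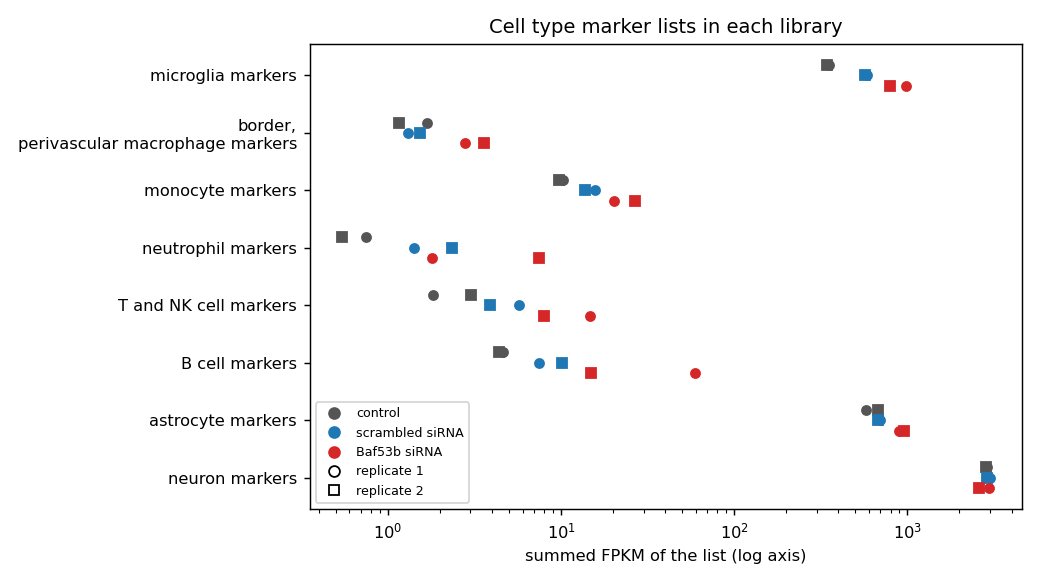
Summed FPKM (horizontal axis, log scale) of 8 cell type marker lists (vertical axis) in each library, with colour for the group and symbol for the replicate. Microglia sums go from 343 FPKM in control to 979 FPKM in Baf53b siRNA, T and natural killer cell sums from 1.83 to 14.8 FPKM, and neuron sums stay between 2590 and 3005 FPKM.

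The genes most like 3 of the ligands over the 6 libraries, by Pearson r of log2(FPKM + 1) among 12204 genes, are given as a description. With Ccl5 these were the leukocyte protein gene Lsp1 (r = 0.996), Tgfbi, the interferon-induced GTPase Igtp, the lysosomal thioesterase Ppt1 and the cytokine receptor Il21r (r = 0.991). Igtp measured 0.780 and 0.782 FPKM in the 2 control libraries, 1.16 and 1.48 FPKM with scrambled siRNA, and 8.08 and 4.90 FPKM with Baf53b siRNA. With Ccl12 they were the thromboxane synthase Tbxas1 (r = 0.987), Ssh2, the integrin chain Itgam, Ndufa4l2 and H3f3b (r = 0.978). Tbxas1 measured 0.869 and 0.867 FPKM in the 2 control libraries, 2.101 and 2.214 FPKM with scrambled siRNA, and 2.87 and 2.12 FPKM with Baf53b siRNA. With Cx3cl1 they were Pqlc1 (r = 0.999), Tmem59l, Pfkp, Fbxo41 and Flot2 (r = 0.998), all lower in the libraries numbered 2. Over 6 libraries that share groups and replicate numbers such values are common: 80, 36 and 665 genes had an r above 0.95 with Ccl5, Ccl12 and Cx3cl1.

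Of 76 tested genes that start within 500 kb of a member, 1 was called, Slfn2, which starts at lower coordinates than Ccl5 and rose with Baf53b siRNA against control by 1.59 (SE 0.18, limma adjusted p = 0.0111). That is near the 1.23% of all genes called higher in this comparison and is no result about the neighbours. The median log2 difference of the 76 against control was 0.10, beside 0.04 over all genes.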

How the data were processed

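Poly(A) RNA of 6 lateral amygdala libraries was sequenced as pairs from a stranded kit, per the labels' protocols. The submitters' processing notes name bcl2fastq 2.19.1.403, TopHat2 2.1.1, Cufflinks 2.2.1 and mm10, with no settings. Which annotation release was used is not stated there. The authors deposited FPKM per gene with a lower and an upper bound, which are not counts, so no count test was used. Fragments were estimated from the width of the bounds. Of 50539 rows, 92 spike-in rows were dropped, rows of 48 repeated IDs were summed, 4 genes with a failed estimate and 353 small RNA genes were left out of the fit, and gene types came from GENCODE M21 by gene ID (50160 of 50383 matched).

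Genes with a mean of at least 1 FPKM (14664) were fitted as log2(FPKM + 1) in limma 3.58.1 (R 4.3.3) over the 3 groups, with a mean-variance trend and Benjamini-Hochberg adjustment over all genes. Differences on this scale understate the change of low genes. The members and all gene lists were chosen with earlier results of these data known. Named were the members, their receptors and proteases, called genes of the fixed lists (some of these genes are not reported here), the 3 most abundant other ligands and the 5 genes most like Ccl5, Ccl12 and Cx3cl1; Ccl8, Slfn2, Gfap, overlapping genes and neuron markers were added after their values were seen. Alternatives changed the pseudocount, filter, scaling, variance model, samples fitted and replicate block, and left out each library. Irf8 and Tubb3 were not analysed here.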

Additional observations from a re-analysis of the deposited data

How the results depend on the processing

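With 2 libraries a group, single libraries decided most counts of calls. Between scrambled siRNA and control 0 genes were called, 1 with these groups alone and 0 to 7 when single libraries were left out. Between the siRNA groups the 18 calls became 1 with a pseudocount of 0.1, 8 with a mean of at least 5 FPKM, 0 with no filter, 28 with a common sum without mitochondrial genes, 30 with a robust variance model, 5 with small RNA genes kept and 4 to 24 without single libraries. The 181 calls of Baf53b siRNA against control became 71 with the stricter filter, 52 with none and 34 to 139 without single libraries. For the other chemokine system genes the 6 calls in that comparison became 3, 2 and 1 to 3 in the same order, and 3 with the compared groups alone. Their 0 calls between the siRNA groups became 0 to 1 without single libraries. The causes were not tested. With a replicate block 0, 13 and 188 genes were called, and 0, 0 and 6 of the system genes. Deviations of same-numbered libraries correlated at 0.390, 0.359 and 0.183 over genes, but with 2 numbers per comparison the libraries share only a number. Of 330 recomputed log2 differences of the ligands 257 stayed within the replicate SD. The 257 include fits that left out a library of the group not compared, where the difference cannot change. The other 73 moved further, and 10 of the 330 changed sign. These were Cx3cl1 in all 3 comparisons (from 0.03 to as low as -0.18 for scrambled siRNA against control, from -0.09 to 0.10 between the siRNA groups and from -0.06 to as high as 0.16 against control), Ccl6 (-0.09 to 0.07 for scrambled siRNA against control, without control replicate 2) and Ccl4 (0.18 to -0.13 between the siRNA groups, without scrambled siRNA replicate 2). Ccl2, Ccl3, Ccl4 and Cxcl9 are limited by depth.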
